A study of Homo sapiens with 73 samples.

Results

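The comparison described here sets treated against DMSO lineages of CHLA-9 cells after the fourth EC course, time point 8 of an evolution experiment in culture. The line, CHLA-9, was derived from Ewing sarcoma and is driven by the fusion transcription factor EWSR1-FLI1. The members were taken by lineage and time point from the labels: 9 of the 73 RNA-seq libraries of the series, 6 treated (lineages R2 to R7) and 3 DMSO (lineages R8, R9 and R10). Treated lineages alternated between VDC, which combines vincristine with doxorubicin and cyclophosphamide, and EC, which pairs etoposide with cyclophosphamide. Cells met the drugs for 5 days at a dose of 70% effect, and RNA was taken only once they had regrown almost to confluency in drug-free medium. DMSO lineages received the solvent in place of the drugs. Every lineage was grown from the same parental line and was sampled once at this time point, so the unit of replication is the lineage, and the values describe regrown cells, not cells under drug.

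As background, etoposide and doxorubicin trap the DNA topoisomerases TOP2A and TOP2B on broken DNA, cyclophosphamide is the prodrug of an alkylating agent, and vincristine blocks microtubule assembly. CDKN1A, a cyclin-dependent kinase inhibitor, is known to hold damaged cells before division, and BCL2 family proteins decide whether cells enter apoptosis. In Ewing sarcoma, EWSR1-FLI1 activates neural and cell-cycle genes and represses mesenchymal genes such as collagens and integrins. When its activity is low, Ewing cells are known to take on a more mesenchymal, adhesive state.

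The deposited values were gene counts already quantile-normalized, so each library of an arm summed to the same total (13583520 in treated and 13582508 in DMSO libraries) and the sequencing depth is unknown. Values under 1 stand for genes listed at or near 0. Tests covered the 14565 of 36233 genes whose mean over the table reached 10. Of 9 Ewing sarcoma markers 8 reached this mean, and CD99 did not. The sum over the 9 genes ran between 31158 and 39114 in treated and between 34506 and 36893 in DMSO libraries. BCL11B and PRKCB made up most of this sum in every library. NKX2-2 was low, at 4.88 to 46.7 in treated libraries and at 28.2, 194 and 21.9 in R8, R9 and R10. FLI1 ran between 998 and 1144 in treated libraries and was at 1119 in R8, 1083 in R9 and 1344 in R10. Epithelial markers summed to 185 to 597 in treated libraries, against 545 in R8, 1519 in R9 and 289 in R10. Blood cell markers summed to 339 to 456 in treated libraries, against 588 in R8, 2243 in R9 and 533 in R10, of which the integrin ITGB2 made up 1479 in R9. Of 14 epithelial markers 8 stayed below 10 in all 9 libraries, among them EPCAM (at most 1.49) and CDH1 (at most 2.72). Of 12 blood cell markers 7 did, among them CD3E and LYZ near 0. The B-cell gene CD79A was at 72.2 to 162 in treated libraries and at 95.4, 666 and 132 in R8, R9 and R10, and the keratin gene KRT18 at 60.8 to 241 in treated libraries and at 65.0, 876 and 36.3, while the pan-leukocyte gene PTPRC was at 1.59 to 7.73 in treated libraries and at 8.16, 20.3 and 11 in R8, R9 and R10. Libraries differed in a few small structured RNAs, whose sum was 60867 in treated R6 and 68237 in DMSO R10 and lay between 116632 and 121086 in the other 7.

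Before any result, the DMSO arm has to be taken apart, since its lineages did not resemble each other. Distances between libraries were measured as the root mean square (RMS) log2 difference over the tested genes. Treated libraries lay 0.565 ± 0.085 apart (SD, 15 pairs), and DMSO libraries 0.901 ± 0.24 apart (SD, 3 pairs). Set against the treated libraries, R8 lay 0.505 away, R10 0.64 and R9 1.1. R8 was thus nearer to treated libraries than these were to each other on average, and R9 stood apart from both arms. Counted per gene, R9 was at least 2 log2 units (4-fold) above every other library in 182 genes (1.25% of those tested) and at least 2 below every other library in 173 genes (1.19%). In no other library did more than 3 genes stand apart upward or more than 9 downward.

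**Figure D1:**
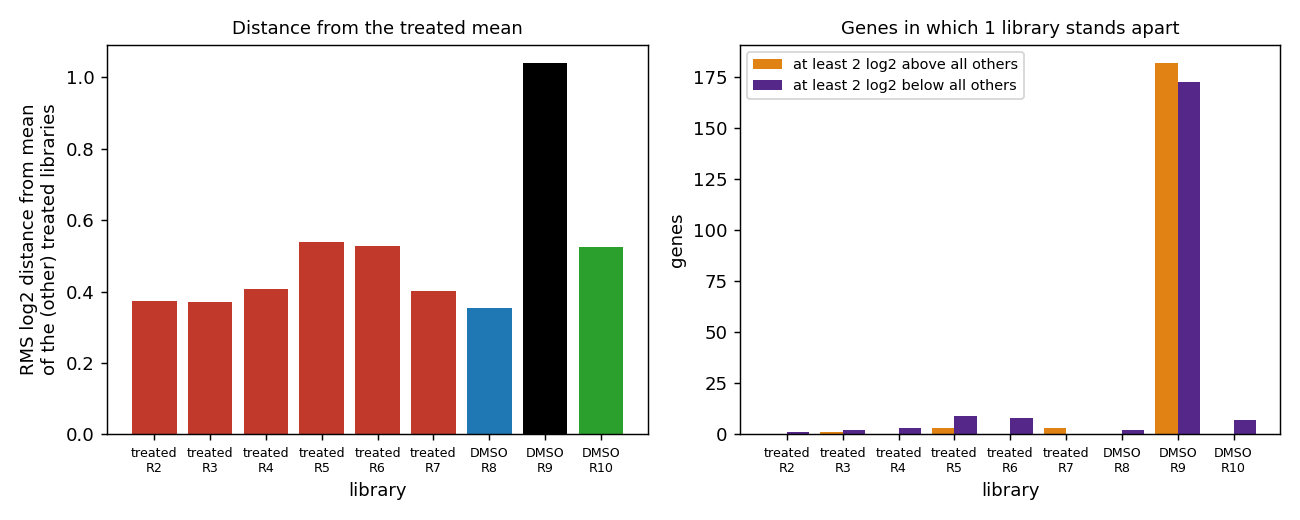
Left, RMS log2 distance of each library of time point 8 from the mean of the treated libraries (for a treated library, of the other 5); right, number of genes in which a library lay at least 2 log2 units above or below all 8 others. Bars are single libraries with no error; R9 has a distance of 1.04 and 182 and 173 such genes, while R8, at 0.354, has the smallest distance of the 9.

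No gene was called between the arms. In limma with Benjamini-Hochberg adjustment over 14565 genes, 0 passed an adjusted p of 0.05 (0.0% called), and the smallest adjusted p was 0.431. At an unadjusted p under 0.05, 521 genes were higher (3.58%) and 478 lower (3.28%) in treated lineages, 999 in all (6.86%). Under median-of-ratios scaling 437 were higher and 590 lower, so which direction held more genes depended on the scaling. In 153 genes every treated library lay above every DMSO library (1.05%), and in 196 every treated library lay below (1.35%). Were the 9 libraries exchangeable, 1 split in 84 (a share of 0.0119) would give each of these, so both shares are near that level. Of those 153, the DMSO lineage farthest from the treated mean was R9 in 111, R10 in 24 and R8 in 18. Of the 196, it was R9 in 144, R10 in 38 and R8 in 14. The same count over all tested genes is not given here. Over all of them R9 also lay farthest from the treated mean (RMS distance 1.04, against 0.525 for R10 and 0.354 for R8). The arms as wholes did not separate beyond their own spread: the mean distance between arms exceeded that within arms by 0.128, with p = 0.0833 in the 1-sided exact permutation test over 84 splits, whose smallest possible p is 0.0119. Without R9, 0 genes were called by limma, 407 had an unadjusted p under 0.05, and the difference of distances was 0.00317 (exact permutation p = 0.5). Without R8, 5 genes were called and the difference of distances was 0.28, with the smallest p that 28 splits allow (exact permutation p = 0.0357). In simulated data of this design, the limma fit recovered 52.1% of genes changed by 1 log2 unit and 79.9% of those changed by 2. The simulation drew independent noise, with the same spread for a gene in every library, so no simulated library stood apart as R9 did. These shares therefore do not give the power of the real comparison.

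The leading genes were taken by unadjusted p among those whose arms did not overlap, 12 of them higher and 11 lower in treated lineages, and none of the 23 passed the adjusted threshold. In bulk RNA, fewer cells expressing a gene and less of its RNA per cell cannot be told apart. PLCL2, a catalytically inactive relative of phospholipase C (chromosome 3, 16884955 to 17090606, RefSeq GRCh38.p14), was at 28.1, 33.6, 42.9, 80.6, 61.6 and 33.0 in treated R2 to R7, against 9.19 in R8, 4.66 in R9 and 6.88 in R10. The 3 DMSO lineages were close to each other, and the lowest treated value lay well above the highest DMSO value. The difference was 2.53 log2 units (SE 0.379), with an adjusted p of 0.431 by the Benjamini-Hochberg method in limma, and 2.31 against R8 and R10 alone. SPECC1, which encodes the coiled-coil protein cytospin-B (chromosome 17, 20009359 to 20319026), was at 22.8, 42.9, 38.7, 27.2, 32.6 and 65.2 in treated lineages and at 8.16, 6.11 and 6.88 in R8, R9 and R10. Here too no DMSO lineage stood out, and the difference was 2.21 (SE 0.341), again with an adjusted p of 0.431 by the Benjamini-Hochberg method in limma.

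MET, the receptor of hepatocyte growth factor (chromosome 7, 116672196 to 116798377), was at 22.8, 27.9, 46.7, 11.1, 16.8 and 49.4 in treated lineages, against 8.7 in R8. In R9 and R10 it was listed near 0 (0.00349 and 0.0154), so the arms parted widely only against these lineages. CHST9, a sulfotransferase acting on N-acetylgalactosamine, had the same form: 28.3 to 95.3 (median 65.0) in treated lineages, against 27.3 in R8, 0.00349 in R9 and 3.44 in R10. PAM, the enzyme that amidates peptide hormones, was at 141 to 398 (median 296) in treated lineages and at 128 in R8, 59.3 in R9 and 105 in R10. TRPS1, a GATA-type transcriptional repressor, was at 212 to 638 (median 390) in treated lineages and at 194, 26.8 and 84.6 in R8, R9 and R10. Its lowest treated value lay only just above R8. ANGPTL4, a secreted inhibitor of lipoprotein lipase, was at 311 to 442 (median 400) in treated lineages, against 286, 86.6 and 169 in R8, R9 and R10. The other 5 were DOK6 (an adaptor of receptor tyrosine kinases), ZDHHC2 (a palmitoyltransferase), the zinc finger gene ZNF470, TOGARAM2 and the keratin pseudogene KRT18P5, with differences between 0.75 and 1.55 log2 units. KRT18P5 shares reads with near-identical copies, so its level is uncertain.

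Among genes lower in treated lineages, the tight junction gene CLDN1 had by far the highest level. It was at 23695, 19738, 20794, 21625, 19448 and 20395 in treated R2 to R7, against 31436 in R8, 33718 in R9 and 28457 in R10. All 3 DMSO lineages lay above all 6 treated ones, by 0.57 log2 units on average (SE 0.112). CLDN16 was at 76.7 to 109 (median 101) in treated lineages and at 169, 225 and 197 in R8, R9 and R10, a difference of -1.04 (SE 0.186). By RefSeq GRCh38.p14, CLDN1 (chromosome 3, 190305707 to 190322446) lies inside the span of CLDN16 (190290361 to 190412138), and whether strand was used in counting is not given in the sources used here, so reads of the pair may not have been told apart. PAX3, a transcription factor of the neural crest and muscle lineages, was at 868 to 1219 (median 1003) in treated lineages, against 1654, 1317 and 1426 in R8, R9 and R10. The potassium channel gene KCNMA1 was at 92.4 to 173 (median 123) in treated lineages and at 259, 189 and 251 in R8, R9 and R10. For these last 2 genes R9 was the DMSO lineage nearest to the treated ones. CISH, a feedback inhibitor of cytokine signalling through STAT5, was at 38.4 to 69.1 (median 55.9) in treated lineages, against 81.5, 175 and 150 in R8, R9 and R10. NEU4, a sialidase, was at 10.5 to 31.1 (median 27.7) in treated lineages, against 51.4, 255 and 153 in R8, R9 and R10. CHMP1B (a subunit of the ESCRT-III membrane-scission complex), SRCIN1, PROSER2, ZNF385A and LINC01433 made up the rest, with differences between -0.61 and -1.72.

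**Figure D2:**
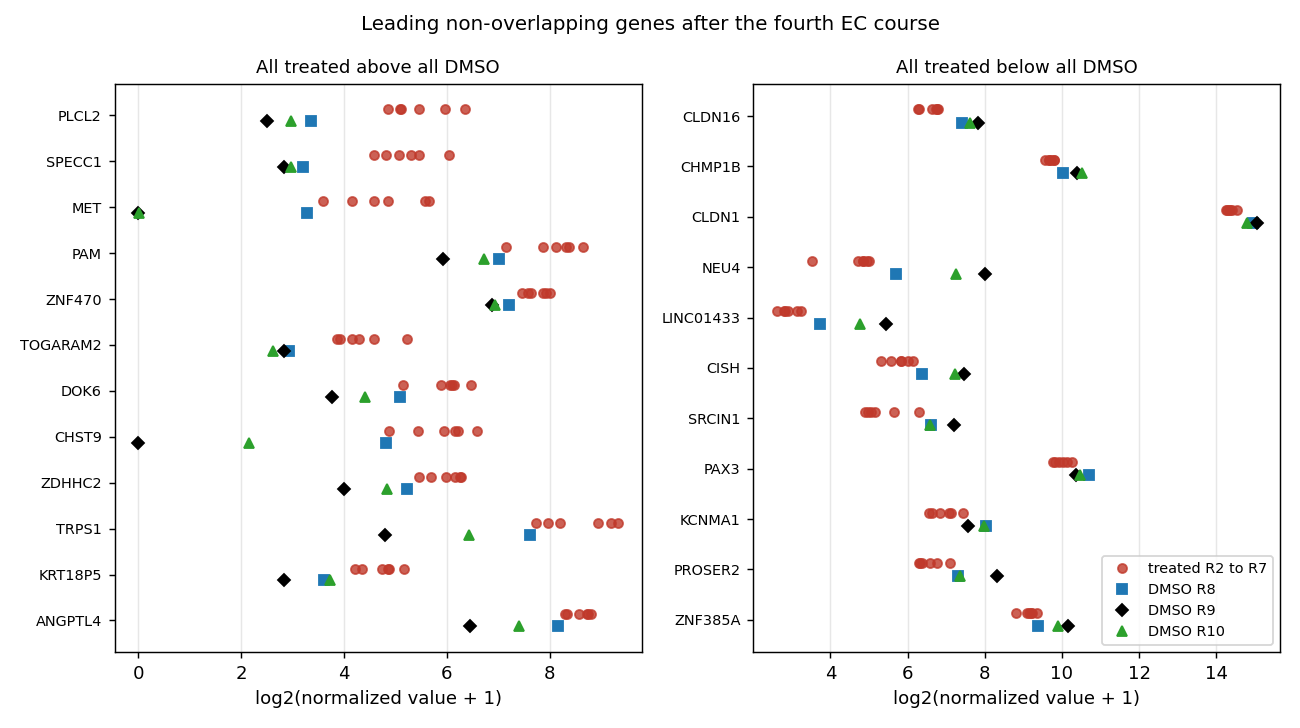
Values of the 23 leading genes in each of the 9 libraries of time point 8, as log2 of the normalized value plus 1; circles are the 6 treated lineages and the 3 other symbols single DMSO lineages. In every gene the treated circles lie on 1 side of all DMSO symbols, as the choice of genes fixes; MET and CHST9 lie near 0 in R9, and R8 is the DMSO lineage nearest to the circles in most genes.

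With the other harvests of the same lineages set beside these values, 19 of the 23 genes had the same direction at time point 6 (after the third EC course), 2 of them with arms that did not overlap. At time points 1, 4, 5, 9 and 10, 13, 16, 12, 20 and 19 had it. At time point 10 the arms did not overlap in 6 of these. ANGPTL4 was then turned round without overlap, at 79.0 to 177 in treated libraries, against 247 in R8 and 231 in R10. All these harvests are repeated samples of the lineages compared here and no independent replicates. The share of all tested genes that kept their direction is not given here. PLCL2 at time point 6 was at 4.67 to 134 (median 91.2) in treated lineages and at 12.9, 2.83 and 3.4 in R8, R9 and R10. SPECC1 at time point 10 was at 12.5 to 95.9 (median 18.3) in 3 treated libraries, against 5.47 in R8 and 5.02 in R10. At time point 9 the arms overlapped in both genes: SPECC1 was at 3.67 to 69.2 in treated libraries and at 23.1, 24.5 and 9.05 in R8, R9 and R10, and PLCL2 at 2.75 to 136 in treated libraries and at 29.9, 5.33 and 16.2. In the parental library PLCL2 was at 2.99, SPECC1 at 15.1 and MET at 0.0248.

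The 5 genes called without R8 were PHACTR2, MET, CHST9 and COL6A3, higher in treated lineages, and OTUD1, lower. They are named after their values were seen. PHACTR2, a regulator of protein phosphatase and actin, was at 64.0 to 153 in treated lineages, against 4.17 in R9 and 3.44 in R10; it was at 69.3 in R8, inside the treated range. OTUD1, a deubiquitinase, was at 901 to 1334 in treated lineages, against 2515 in R9 and 2445 in R10, and at 1312 in R8. In limma with Benjamini-Hochberg adjustment their differences from R9 and R10 were 4.34 log2 units for PHACTR2 (adjusted p 0.00593), 4.72 for MET, 4.79 for CHST9 and 4.09 for COL6A3, and -1.16 for OTUD1 (adjusted p 0.0479 for each of these 4). R8 held a value within the treated range for 3 of the 5, COL6A3 being the third. In a fit over all time points from which every R8 library was left out, 519 genes were called at time point 8, 258 higher and 261 lower in treated lineages. That fit takes repeated harvests of a lineage as independent libraries, and the 5 calls above come from time point 8 alone.

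Gene groups were described through 30 lists, by counts and medians beside those of all tested genes, whose median treated-minus-DMSO difference was 0.0189 log2 units. Of all tested genes, 7751 had a higher and 6814 a lower mean in treated lineages. No member of any list was called (0.0% of all genes were). CDKN1A (chromosome 6) was at 498, 827, 777, 190, 1295 and 1320 in treated lineages, against 935 in R8, 10116 in R9 and 1481 in R10. R10 lay just above the treated range and R9 far above it. MDM2, a ubiquitin ligase, was at 1968 to 2322 in treated lineages and at 2535, 4120 and 2024 in R8, R9 and R10. Among BCL2 family genes, 8 of 14 kept members had a lower mean in treated lineages, 3 of them with an unadjusted p under 0.05 (21.4%, against 3.28% of all genes in this direction). Their median was -0.148, made up of 0.00405 against R8, -0.371 against R9 and -0.04 against R10. BBC3, a pro-apoptotic member, was at 88.7 to 232 in treated lineages and at 161, 712 and 258 in R8, R9 and R10.

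Genes that EWSR1-FLI1 activates showed no shift of their median. Of 30 activated genes, 15 had a higher and 15 a lower mean in treated lineages, with a median of 0.0139; 4 had an unadjusted p under 0.05, all lower (13.3%, against 3.28% of all genes in this direction). NR0B1, a nuclear receptor and classic target of the fusion, was at 1771 to 2796 (median 2212) in treated lineages, against 2403 in R8, 4938 in R9 and 3341 in R10. Of 23 kept genes that the fusion represses, 17 had a higher mean in treated lineages, 4 of them with an unadjusted p under 0.05, and 2 others were lower at that level (26.1% in either direction, against 6.86% of all genes). Their median was 0.48, made up of 1.37 against R9, 0.228 against R10 and 0.161 against R8. Treated R5 was itself 1.22 below the mean of the other treated lineages for this list, close to the 1.37 of R9. EWSR1 was at 2529 to 2901 in treated lineages and at 2665, 2646 and 2734 in R8, R9 and R10.

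Collagen and matrix genes, some of which are also in the repressed list, had higher means in treated lineages for most members. Of 30 kept members, 26 had a higher mean (as had 53.2% of all genes), 9 of them with an unadjusted p under 0.05 (30.0%, against 3.58% of all genes in this direction), and none was free of overlap. COL6A3, a chain of collagen VI, was at 1189, 1013, 647, 305, 714 and 1545 in treated lineages, against 591 in R8, 37.1 in R9 and 57.4 in R10. R8 lay among the treated lineages and the other two far below them. COL5A1 was at 7996 to 13202 (median 9278) in treated lineages and at 8076, 5553 and 6231 in R8, R9 and R10. COL1A1 was at 3086 to 12882 (median 7869) in treated lineages, against 5339, 2808 and 1993, and the growth factor receptor gene PDGFRA was at 7.9 to 48.2 in treated lineages, against 19.1 in R8 and near 0 in R9 and R10 (0.00349 and 0.0154). Some matrix genes were low in R9 alone: the matrix protein gene LUM was at 426 to 1053 in treated lineages and at 868, 32.8 and 729 in R8, R9 and R10, and COL3A1 at 4344 to 9663 and at 4775, 913 and 5072. POSTN, another matrix protein gene, was low in R10 as well: it was at 80.6 to 1040 in treated lineages and at 270, 3.64 and 25.8 in R8, R9 and R10. LUM, COL3A1 and POSTN were picked after their values were seen. The median of the list against each DMSO lineage was 0.207 for R8, 1.33 for R9 and 0.453 for R10. Fibroblast and muscle markers followed the same order, with medians of 0.0697, 2.3 and 0.291, and their sum was 12986 to 29754 in treated libraries, against 15224, 6349 and 12006. Whether other cells had a part in these values was not tested.

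**Figure D3:**
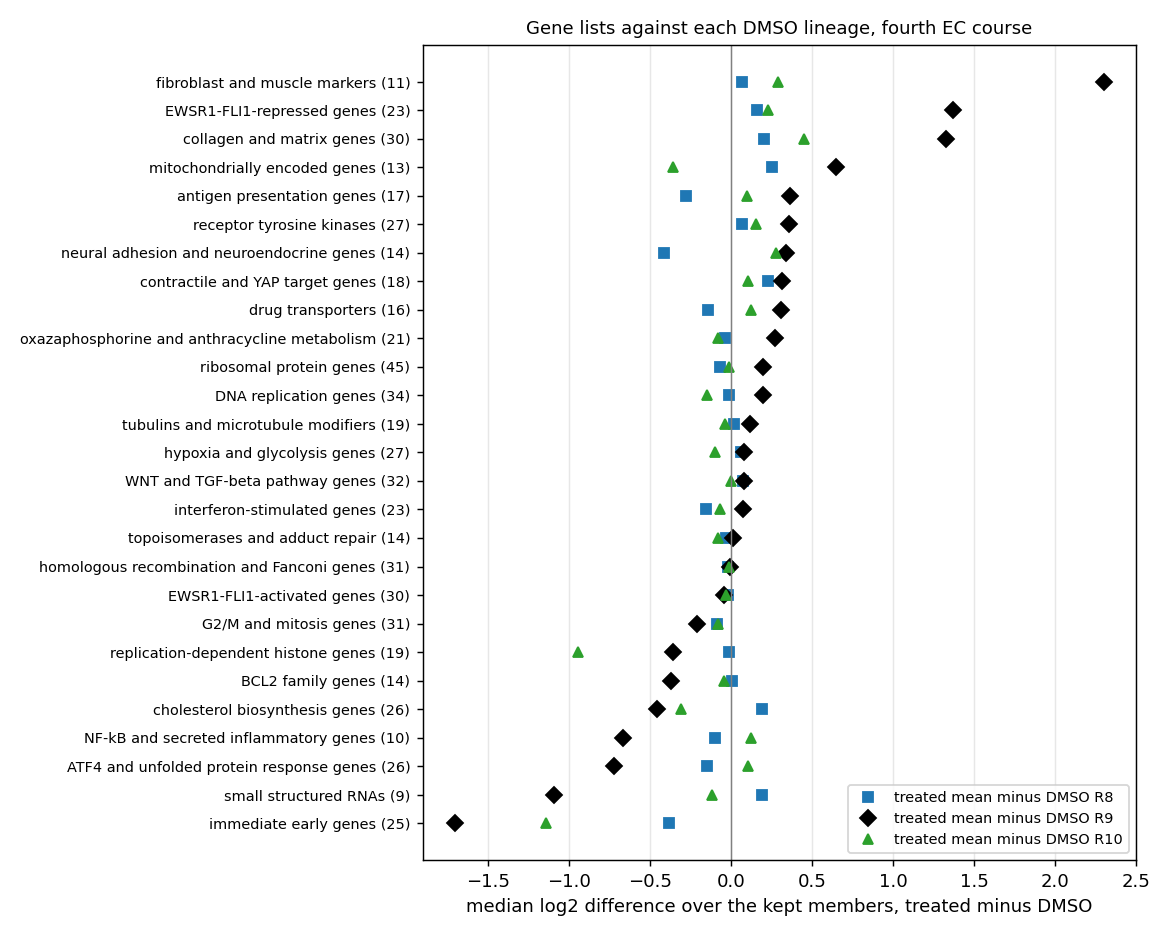
Median log2 difference over the kept members of each list with at least 9 kept genes (number in brackets), treated mean minus each DMSO lineage; points are medians over genes with no error bar. Against R8 every median lies between -0.41 and 0.253; the widest differences are against R9, from -1.7 for immediate early genes to 2.3 for fibroblast and muscle markers.

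Immediate early genes, which growth factors and handling switch on within minutes, had lower means in treated lineages in 23 of 25 kept members. For 12 the unadjusted p was under 0.05 (48.0%, against 3.28% of all genes in this direction), but no member was free of overlap. The median was -1.1, made up of -0.384 against R8, -1.7 against R9 and -1.14 against R10, so R8 was again the nearest DMSO lineage. JUND was at 1570 to 2305 in treated lineages and at 1945, 3705 and 3948 in R8, R9 and R10. NR4A2, an orphan nuclear receptor, was at 10.5 to 28.9 in treated lineages and at 26.0, 261 and 64.0. FOSB was at 197, 125, 48.6, 7.9, 106 and 176 in treated lineages, against 125, 672 and 515; it was picked after its values were seen. Treated R5 carried part of the difference: 24 of 25 members lay below the other treated lineages there, with a median of -1.57. Without R5 the median difference between arms was -0.676, and without R9 it was -0.795. What set the immediate early genes in R5 was not tested.

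Genes that report output of the MAPK pathway (the cascade from receptor tyrosine kinases through RAS to ERK) were collected after their values were seen, 10 genes in all, and are described only. Against the treated mean, their median lay 0.227 log2 units higher in R8, 3.26 higher in R9 and 0.901 higher in R10. Treated R5 had a median of -0.782 from the other treated lineages, with 4 of the 10 genes at least 1 log2 unit below them. R5 thus lowers the treated mean used here. SPRY4, a feedback inhibitor of the pathway, was at 54.7, 44.2, 117, 26.2, 75.9 and 83.5 in treated lineages, against 98.0 in R8, 1515 in R9 and 173 in R10. The ERK phosphatase gene DUSP6 was at 174 to 799 in treated lineages, against 600, 4384 and 1173. The ETS transcription factor gene ETV5 was at 465 to 1059 in treated lineages, against 1149, 7752 and 802, and its relative ETV4 at 1.55 to 9.9 in treated lineages, against 2.99, 1215 and 35.7. EPHA2 was at 123 to 270 in treated lineages and at 202, 3186 and 326. CCND1 was an exception, with 38970 to 48737 in treated lineages and 38972, 44969 and 38972 in R8, R9 and R10. EPHA4 was low in R9, with 2284 to 3557 in treated lineages and 3351, 897 and 2830.

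Receptor tyrosine kinases held the highest share of genes without overlap among lists with at least 9 kept genes: of 27 kept members, 3 were above and 1 below every DMSO value (14.8%, against 2.4% of all genes). MET was one of the higher ones. ROR2, a receptor of non-canonical WNT signals, was at 44.3, 43.3, 43.4, 31.2, 145 and 57.2 in treated lineages, against 16.7 in R8, 5.14 in R9 and 20.7 in R10. EGFR was at 204 to 487 in treated lineages, against 163, 7.11 and 134. EGFR was picked after its values were seen.

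Among the direct targets of the drugs and the genes of repair and drug handling, few parted by arm. TOP2A was at 6530 to 8806 (median 7886) in treated lineages and at 8382, 8703 and 8106 in R8, R9 and R10, a difference of -0.11 with a 95% interval of -0.36 to 0.14. TOP2B was at 5645 to 6449 (median 6033) in treated lineages and at 6299, 4775 and 6691. SLFN11, a DNA-binding factor known to sensitise cells to topoisomerase poisons, was at 2600 to 3883 (median 3410) in treated lineages, against 3866, 5081 and 3542, a difference of -0.33 (SE 0.145) with an adjusted p of 0.68 by the Benjamini-Hochberg method in limma. Of 14 kept topoisomerase and adduct repair genes, SLFN11 was the only one with an unadjusted p under 0.05. Of 31 homologous recombination and Fanconi genes 1 was higher at that level: SLX4, a scaffold of repair nucleases, at 641 to 850 in treated lineages and at 622, 594 and 612. Of 19 tubulin genes and microtubule modifiers 1 was higher, TTLL7, a tubulin polyglutamylase, at 33.4 to 119 in treated lineages and at 20.6, 0.00349 and 23.0. Of 21 genes of oxazaphosphorine and anthracycline metabolism 1 was higher, the glutathione transferase GSTM2, at 327 to 551 in treated lineages and at 322, 248 and 297. Of 16 drug transporters 1 was lower, the nucleoside carrier SLC29A1, at 411 to 597 in treated lineages and at 579, 585 and 614. These shares, between 3.23% and 7.14%, are near the 6.86% of all tested genes.

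Cell-cycle genes differed little between arms. Of 31 G2/M and mitosis genes, 27 had a lower mean in treated lineages, but the median was only -0.107, and of 34 DNA replication genes none had an unadjusted p under 0.05. MKI67, the proliferation marker, was at 10636, 9158, 8882, 6381, 12040 and 9574 in treated lineages and at 8990, 11618 and 10812 in R8, R9 and R10. Treated R5 was the lowest of the 9 libraries, and in it all 31 mitotic genes lay below the mean of the other treated lineages, by a median of 0.67. Replication-dependent histone genes had a lower mean in treated lineages in 19 of 19 kept members. Of these, 6 had an unadjusted p under 0.05 (31.6%, against 3.28% of all genes in this direction). Free of overlap were 2 (10.5%, against 1.35%). Here R10, not R9, was the farthest: the median was -0.0103 against R8, -0.356 against R9 and -0.946 against R10. H2AC20 was at 1526 to 1989 in treated lineages, against 2000, 2423 and 3382, and H2AC14 at 85.0 to 815 in treated lineages, against 274, 591 and 1426. H2AC14 was picked after its values were seen. Histone genes are near-identical copies without poly(A) tails, so their counts depend on how reads were assigned and RNA was selected; R10 also had a low sum of small structured RNAs, as had treated R6, and the part of this in the histone values was not tested.

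Of the remaining lists, genes of ATF4 and the unfolded protein response had a lower mean in treated lineages in 23 of 26 members. An unadjusted p under 0.05 was reached by 2 (7.69%, against 3.28% of all genes in this direction). The median was -0.722 against R9 and -0.148 against R8, but 0.106, the other way, against R10. XBP1, a transcription factor of this response, was at 386 to 706 in treated lineages, against 555, 1238 and 848. Cholesterol biosynthesis genes were lower in 24 of 26 (0 with an unadjusted p under 0.05), with medians of 0.192 against R8, -0.458 against R9 and -0.307 against R10. Of 23 interferon-stimulated genes 12 had a higher and 11 a lower mean, with a median of 0.017; 5 were lower at that level (21.7%, against 3.28% of all genes in this direction), 2 of the list without overlap (8.7%, against 1.35%). IFIT3, an antiviral member, was at 85.4 to 136 in treated lineages and at 151, 188 and 150. Among neural adhesion and neuroendocrine genes 1 of 14 was higher and 4 were lower at that level (35.7% in either direction, against 6.86% of all genes). NPR3, the natriuretic peptide clearance receptor, was at 0.489 to 22.5 in treated lineages and at 27.7, 4371 and 113 in R8, R9 and R10, while NCAM1 was at 23.4 to 103 in treated lineages, against 43.3, 0.314 and 10.4. Ribosomal protein genes (0 of 45) and mitochondrially encoded genes (0 of 13) had no member with an unadjusted p under 0.05.

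Among the genes in which R9 stood apart, the named ones had varied roles. CTNND2, a neural catenin, was at 0.694 to 5.43 in treated lineages, against 0.962 in R8, 3009 in R9 and 43.3 in R10. VGF, a secreted neuropeptide precursor, was at 16.3 to 102 in treated lineages, against 70.9, 5023 and 94.6. RUBCNL, an autophagy factor, was at 25.6 to 58.4 in treated lineages and at 51.4, 4969 and 84.6. The chemokine gene CXCL8 was at 0.538 to 15.5 in treated lineages and at 15.1, 768 and 13.8, and BLACAT1 was at or below 1.59 in treated lineages and at 0.00565, 1343 and 13.8. R9 lay far outside all 8 other libraries in each of these, and R10 was the second highest in CTNND2, RUBCNL and BLACAT1. The tryptase genes TPSAB1 (7.36 to 13.4 in treated lineages, and 7.14, 2603 and 61.9) and TPSB2 are near-identical copies whose reads may be shared. On the low side, HEPH, a membrane ferroxidase, was at 129 to 458 in treated lineages, against 796, 0.00349 and 52.7. The semaphorin receptor NRP2 was at 52.3 to 165 in treated lineages, against 128, 1.26 and 57.9, and COL4A5, a basement membrane collagen, at 59.4 to 293, against 97.4, 1.71 and 104. Of the 173 low genes, 20 lie on the X chromosome (11.6%, against 3.22% of tested genes), among them HEPH and COL4A5; of the 182 high genes, 8 do (4.4%).

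Promoter windows ran from 250 bases before to 50 bases after the start that the RefSeq promoter table takes for each gene (GRCh38.p14). They were searched for 2 motifs, those of AP-1 and of CRE-binding factors. Whether these factors had a part in the R9 values was not tested. The windows of CXCL8 and VGF are shown because these genes carry one of the 2 motifs searched and are among those named above. They run 5′ to 3′ on the gene's strand; capitals mark the motif, TGANTCA in CXCL8 (chr4:73740319-73740618, plus strand) and TGACGTCA in VGF (chr7:101165520-101165819, minus strand). The VGF window lies inside the annotated span of the gene (101162509 to 101169952), not at its outer end.
CXCL8: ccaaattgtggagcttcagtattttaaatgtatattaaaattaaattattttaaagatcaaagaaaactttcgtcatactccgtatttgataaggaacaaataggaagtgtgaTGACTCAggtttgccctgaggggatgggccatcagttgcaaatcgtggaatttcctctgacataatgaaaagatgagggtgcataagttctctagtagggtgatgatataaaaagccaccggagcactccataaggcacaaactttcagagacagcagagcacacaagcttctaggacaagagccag
VGF: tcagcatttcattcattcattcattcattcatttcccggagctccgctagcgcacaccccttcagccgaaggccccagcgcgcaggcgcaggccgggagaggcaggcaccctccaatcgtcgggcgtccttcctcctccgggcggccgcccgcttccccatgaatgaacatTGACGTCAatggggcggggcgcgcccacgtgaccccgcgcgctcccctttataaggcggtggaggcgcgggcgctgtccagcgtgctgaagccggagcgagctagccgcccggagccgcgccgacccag
The AP-1 motif TGANTCA (both strands; it does not overlap the other motif) was in 16 of the 135 R9-high genes with a RefSeq window (11.9%), in 10 of 124 R9-low genes (8.06%), in 4.62% of windows of tested genes and in 7.76% of all windows. The CRE motif TGACGTCA was in 4 of the 135 (2.96%), in 3 of the 124 (2.42%), in 3.31% of windows of tested genes and in 1.98% of all. A match is a description of letters and no sign that a factor binds there.

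Over the course of the experiment, the high genes of R9 were near the treated mean 2 time points earlier, while its low genes lay below it. As the median difference of each DMSO lineage from the treated mean of the same time point (a positive value is higher in the DMSO lineage), the 182 genes stood at 0.0536 in R9 at time point 6, 3.94 at time point 8, which chose them, and 3.92 at time point 9. In R10 the same genes were at 0.3 at time point 8, at 2.22 at time point 9 and at 3.39 at time point 10. In R8 they stayed between -0.587 and 0.209 at all its time points. R9 has no library at time points 7 and 10 and R10 none at 7 here, and each value rests on 1 DMSO library. The 173 low genes were at -0.578 in R9 at time point 6, -3.6 at time point 8 and -2.7 at time point 9. They had been below the treated mean in R9 and R10 already at time point 5, by -1.2 and -1.02, and R10 was at -1.85 at time point 10. Both sets thus kept their direction in R9 at time point 9 and had the same direction in R10 at its later harvests. These harvests had a part in the choice, since genes needed a mean of 10 or more over all libraries of the table. A gene high only in late DMSO libraries could pass that filter through them. With no filter, 348 genes were high and 188 low in R9 at time point 8. In R8 the low genes lay between -0.0876 and 0.482 up to time point 9 and at -0.51 at time point 10, against -0.409 in R10 at time point 9.

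**Figure D4:**
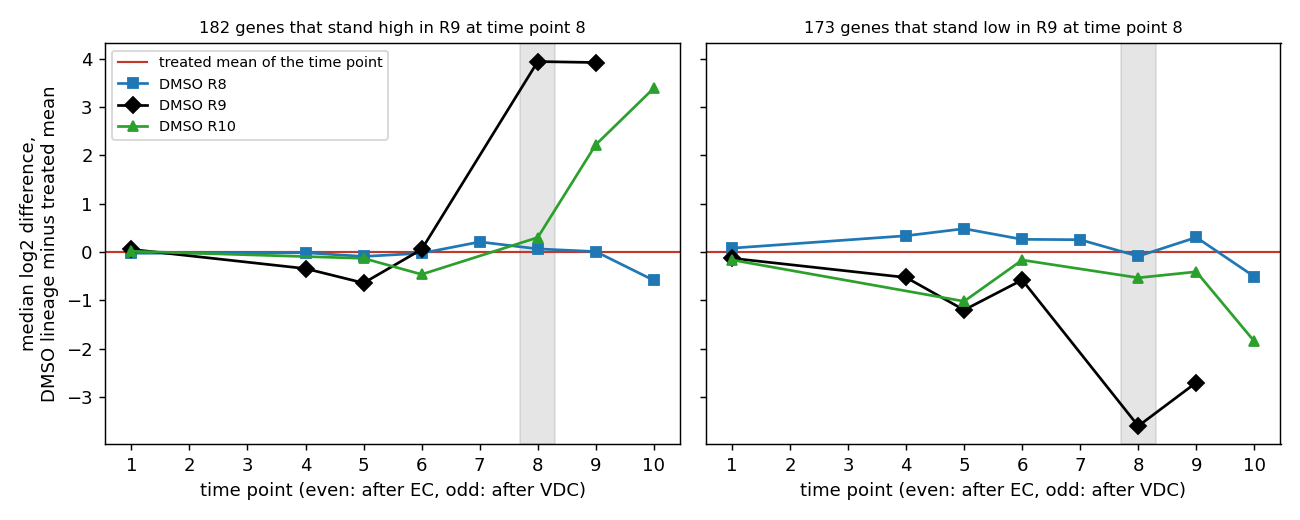
Median log2 difference of each DMSO lineage from the treated mean of the same time point, for the genes that stood high (left) or low (right) in R9 at time point 8 (shaded); each point is 1 library, and the line at 0 is the treated mean of 3 to 7 libraries. R9 reaches 3.94 and -3.6 at time point 8, which chose the genes, and R10 reaches 3.39 and -1.85 at time point 10, while R8 never falls below -0.587.

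Single genes followed this course. The treated medians of CDKN1A were 909, 802 and 597 at time points 6, 8 and 9, and R8 was at 863, 935 and 1209. R9 was at 1190, 10116 and 9436 at these times, and R10 at 1249, 1481 and 2416, then at 6010 at time point 10. At time point 1 the order was turned round, with 510 to 1387 in treated lineages and 1229 in R8, but 53 in R9 and 71.2 in R10. SPRY4 had treated medians of 118, 65.3 and 67.4 at time points 6, 8 and 9. It was at 78.5, 1515 and 1418 in R9 at these times and at 38.4, 173 and 473 in R10, then at 814 at time point 10. CTNND2 stayed at or below 5.43 in treated lineages from time point 8 on, and in R10 it was at 43.3, 1395 and 3047 at time points 8, 9 and 10, the last close to the 3009 of R9 at time point 8. The matrix gene COL6A3 had another course, with R9 and R10 below the treated lineages at time points 5 and 6 too, though R9, at 426, was within the treated range of 85.7 to 1042 at time point 4. At time point 5 it was at 231 to 719 in treated lineages and at 499 in R8, 5.93 in R9 and 135 in R10. At time point 6 it was at 153 to 2099 in treated lineages and at 1274, 91.8 and 132. MET was at 0.00975 to 1.28 in treated lineages at time point 1 and near 0 in all DMSO lineages (0.0144 to 0.0262). At time point 6 it had a treated median of 15.6 and was at 24.9 in R8, 0.0309 in R9 and 0.0103 in R10.

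**Figure D5:**
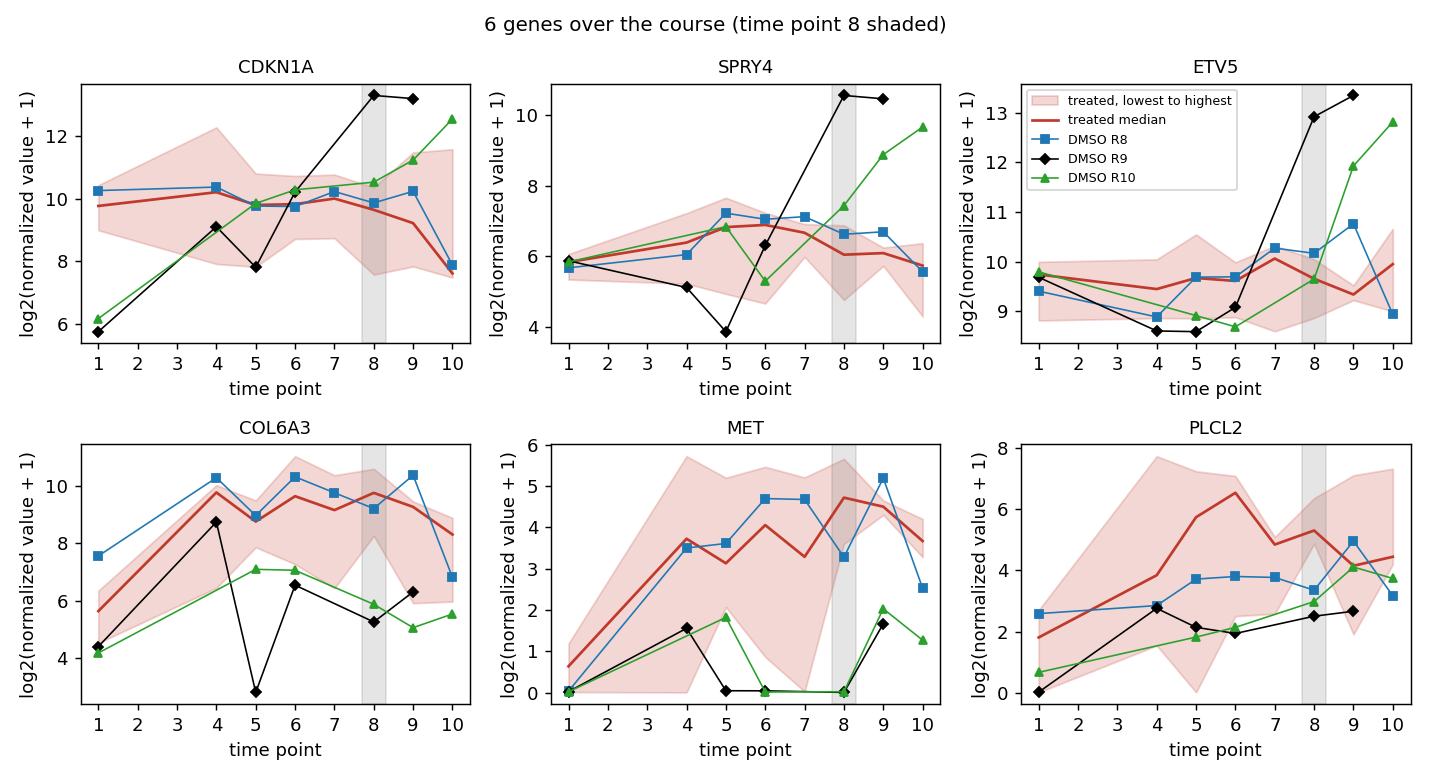
Course of 6 genes as log2 of the normalized value plus 1; the band and red line are the lowest to highest value and the median of 3 to 7 treated libraries, and the other lines are single DMSO lineages, with time point 8 shaded. CDKN1A, SPRY4 and ETV5 leave the treated band in R9 at time point 8 and in R10 by time point 10, and at time points 5, 6 and 8 COL6A3 and MET are below the treated band in R9 and R10, while of these 2 genes in R8 only MET at time point 8 is.

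The remaining libraries differed in smaller ways. In R10 the 7 genes that stood at least 2 log2 units below all others (0.0481% of those tested) included PTX3, a secreted pattern-recognition protein, which was at 14.8 to 95.7 in treated lineages, against 46.5 in R8, 3.64 in R9 and 0.0154 in R10. The adhesion gene L1CAM was at 152 to 457 in treated lineages and at 309, 247 and 25.3, and the immune checkpoint ligand gene CD274 at 14.2 to 51.2 and at 31.3, 15.5 and 0.0154. In R8 the only such genes were FAM83G and DNAH2 (0.0137%). Among treated lineages, R5 had the immediate early genes FOS at 326 and EGR1 at 672, against 3218 to 6069 and 4296 to 6224 in the other treated lineages. R5 also had the cardiac troponin gene TNNT2 at 255, against 9.9 to 58.4. R7 had EGFL6, a secreted EGF-like protein, at 150, against 0.0132 or less in the other 5, and the matrix gene FRAS1 at 1017, against 58.6 to 131. R6 had low values of the ribosomal protein gene RPL11 (5658, against 8135 to 10020) together with its low sum of small structured RNAs.

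Whether the difference between arms at time point 8 differed from that at time point 6, after the third EC course, was tested in 18 libraries. Most lineages gave a library at both time points, and this fit and its SEs took all 18 as independent. A fit with lineage as a replicate block is given further below. In limma with Benjamini-Hochberg adjustment 0 of 14565 genes were called (0.0%), the smallest adjusted p being 0.97, and 451 had an unadjusted p under 0.05 (3.1%), 223 with a more positive difference at time point 8 and 228 with a more negative one. Under median-of-ratios scaling that split was 142 and 331. MTF1, the metal-responsive transcription factor, led the first group: treated minus DMSO was 0.4 at time point 8 and -0.24 at time point 6, a change of 0.64 (SE 0.138). The signalling scaffold gene AKAP5 was at 0.46 and -0.36, a change of 0.81 (SE 0.222). ENO3, the muscle enolase, was at -0.53 at time point 8 and 0.71 at time point 6, a change of -1.24 (SE 0.31). C1orf127 was at -2.02 and 0.91, with values at time point 8 of 12.1 to 32.5 in treated lineages and 50.8, 357 and 44.2 in R8, R9 and R10. The feedback inhibitor SPRY2, picked after its values were seen, changed by -2.78 (SE 1.03), with 17.8 to 42.6 in treated lineages at time point 8 and 41.2, 1035 and 73.7 in R8, R9 and R10. None of these changes passed the adjusted threshold.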

How the data were processed

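The labels' protocols give the Qiagen AllPrep kit for RNA and STAR for alignment and counting; the submitters' processing notes add featureCounts and the build GRCh38, all without versions. What was deposited is a signal, gene counts after quantile normalization, for 36233 genes in 73 columns. Column totals are equal within each arm and differ between arms, so the authors appear to have normalized the arms separately in the deposited values. Depth per library cannot be recovered, and intervals for counting error are not given.

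Groups were read from the labels. The 9 libraries of time point 8 were fitted with limma 3.58.1 (R 4.3.3, data.table version 1.17.8; trended variance, unpaired) on log2 of the value plus 1. Genes needed a mean of 10 or more over the table (14565 genes), and a call needed a Benjamini-Hochberg adjusted p under 0.05. Libraries of other time points were left out of this fit, since they are repeated samples of the same lineages. The difference from time point 6 was an interaction contrast over 18 libraries, taken as independent although most lineages entered at both time points. Fits were tested on simulated data with 200 changed genes among 14565. Distances, exact permutation tests, lists and standing-apart counts were computed in Python 3.11.15 (numpy 2.4.6, pandas 2.3.3, scipy 1.17.1), and figures drawn with matplotlib 3.10.9.

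The comparison, the 30 lists (682 symbols, 681 found, 16 under another name) and the naming rule were chosen with earlier results of these data known. The rule named up to 12 non-overlapping genes in each direction, 5 in each direction for the difference from time point 6, up to 4 of each list (otherwise the 2 with the smallest p), 12 fixed genes, and the genes with the largest gaps in each library (8 in each direction for DMSO, 3 for treated). A few items of the rule and lists are not reported here. Genes outside it, other than the cell type markers, are marked as picked after their values were seen. Lists were described by counts and medians, with no set test. Alternatives were other pseudocounts, filters, normalizations and variance models, each library left out, a shared fit of 72 libraries, and lineage as a replicate block; the fits without a whole DMSO lineage, and the alternatives for standing-apart counts and list medians, were added after seeing the data. Promoter windows and coordinates came from RefSeq, GRCh38.p14, matched by symbol.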

Additional observations from a re-analysis of the deposited data

Results flagged for a closer look

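In 20 of the 138 genes named by the rules above, 1 treated lineage lay farther from the other 5 than Dixon's 95% criterion allows. The criterion was applied to log2 of the deposited value plus 1 at time point 8. Chance flags about 1 in 20 groups where values are normally distributed, which was not tested here. Several of these genes were named because 1 library stood apart, so their flags follow from the choice. These values also enter the comparisons with DMSO given above, and no cause was tested.

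In R5, NEU4 was at 10.5 (25.2 to 31.1 in the other treated lineages), ABCC5 at 1239 (727 to 872), GSTM2 at 551 (327 to 385) and ANKRD1 at 31.2 (167 to 293). R5 also had FOS at 326 (3218 to 6069), EGR1 at 672 (4296 to 6224), KCNH4 at 1.02 (24.7 to 53.6) and SLC38A5 at 70.5 (4.15 to 11.7). In R6, RPL11 was at 5658 (8135 to 10020) and RPS24 at 5442 (7290 to 8512), while HLF and SLA were both listed at 0.0117 (15.1 to 40.8 for HLF and 9.48 to 41.3 for SLA). In R7, EGFL6 was at 150 (at most 0.0132), FRAS1 at 1017 (58.6 to 131) and CD274 at 51.2 (14.2 to 20.5). In R2, ZFP3 was at 8.16 (40.7 to 71.9). In R3, BLACAT1 was at 1.59 (at most 0.0132). In R4, PDIA2 was listed at 0.0132 (9.47 to 39.5), the pseudogene RPL27P3 at 1.19 (11.3 to 13.7) and C8orf17 at 0.595 (7.86 to 15.4).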

How the results depend on the processing

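Depth is unknown, each DMSO lineage has 1 library, and 3 DMSO lineages against 6 treated ones leave any difference resting on how R8, R9 and R10 are weighed; the cause of the changes below was not tested except where fewer genes or libraries enter. For treated versus DMSO, limma called 0 genes in every alternative but these: 2 with no filter on low values (36233 genes tested), both listed near 0, and 519 in the shared fit without DMSO lineage R8. Leaving out 1 library at a time gave 0 to 5 calls, the 5 without R8; genes with an unadjusted p under 0.05 then numbered 2327 without R8, 407 without R9 and 1391 without R10. The separation of the arms ran between 0.00317 (without R9) and 0.28 (without R8). For the change from time point 6, limma called 0 genes in every alternative; with lineage as a replicate block (correlation within lineage 0.111) it called 0 as well, with 608 genes at an unadjusted p under 0.05. The number of genes high in R9 was 348 with no filter and 91 for genes with a mean of at least 50, and that of genes low in R9 was 61 with a pseudocount of 10 and 107 for a mean of at least 50; without 1 other library they ran from 183 to 194 and from 175 to 208. The medians of 4 lists kept their sign in every alternative, but without R9 that of matrix genes was 0.289 and of EWSR1-FLI1-repressed genes 0.0933, and without R10 that of histone genes was -0.173. Of 1805 alternative values for 87 named genes, 1771 kept direction and side of the threshold, 27 passed the threshold and 7 turned sign, all in 3 genes near 0: TOP2B (0.03 as reported, -0.00184 under median-of-ratios scaling, -0.088 with array weights, and -0.118 without R9 to 0.125 without R10), CYTB (-0.00558 without R9 to 0.405 without R10) and EWSR1 (-0.00169 under median-of-ratios scaling).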
